A study of Mus musculus with 48 samples.

Results

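The genes described here are the 39 proteasome genes whose mouse symbol is Psma, Psmb, Psmc or Psmd followed by a number. All 39 are present in the tables of 54331 genes, 19 in the core particle (Psma and Psmb) and 20 in the regulatory particle (Psmc and Psmd). The rule uses the symbol only, though earlier results of these data were known when the members were chosen. The study compared RNA of mouse retinal ganglion cell (RGC) axons with RNA of the eye in 48 libraries of 15 groups. For EU libraries, ethynyl uridine, a label taken up by new RNA, was injected into the eye and labelled RNA was captured from the superior colliculus (SC) or lateral geniculate nucleus (LGN), the brain targets of the axons. TRAP libraries hold RNA captured with tagged ribosomes of the axons, and the driver of the tag is not given in the sources used here.

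Wild-type, uninjured mice gave SC EU libraries at postnatal day 10 (P10, n = 3), P14 (n = 5), 8 weeks (n = 3) and P10 followed by a 4-day chase (n = 3), and SC TRAP libraries at P10 (n = 3) and P14 (n = 5). The same kind of mice gave LGN EU (n = 2) and LGN TRAP (n = 3) libraries at P14, and 3 eye groups at P14: RGC purified by immunopanning, RGC purified likewise and then EU-captured, and cells sorted by FACS (n = 3 each). Libraries labelled fmr1ko were SC EU, SC TRAP and FACS eye cells at P14 (n = 3 each), all uninjured. Libraries labelled sarm1ko (n = 3) held SC EU RNA of axotomized mice, labelled at P14 and chased for 7 days. The EU protocol pools the SC of 3 animals. The labels do not state that a group's libraries stem from separate animals, and p-values then reflect only how far libraries vary, which may be technical.

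The proteasome degrades proteins that carry ubiquitin chains. Its core particle is a barrel of alpha rings, which form the gate, around beta rings, of which Psmb5, Psmb6 and Psmb7 carry the proteolytic sites. The regulatory particle caps the barrel: a base with the ATPases Psmc1 to Psmc6 unfolds the substrate, and a lid with the deubiquitinase Psmd14 removes its ubiquitin. In immune and inflamed cells the inducible subunits Psmb8, Psmb9 and Psmb10 replace Psmb5, Psmb6 and Psmb7. In axons and synapses, local degradation by the proteasome is known to take part in axon growth, pruning and synaptic change.

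The members differ in base composition, and this property accompanied their levels in most comparisons below. The coding starts of 4 members are shown because they belong to the members lowest and highest in GC content and to a member of each core ring. They are the first 120 coding bases, with G and C in capitals, from GENCODE M21 transcripts on GRCm38. Psmc6, a base ATPase, lies at chr14:45329788-45349705 on the plus strand, and its transcript has 36.97% GC. Psma2, of the alpha ring, lies at chr13:14613240-14674236 on the plus strand (39.37% GC). Psmb5, the beta subunit with the chymotrypsin-like site, lies at chr14:54614119-54618022 on the minus strand (56.62% GC). Psmd3, a lid scaffold, lies at chr11:98682554-98695979 on the plus strand (58.33% GC).
Psmc6: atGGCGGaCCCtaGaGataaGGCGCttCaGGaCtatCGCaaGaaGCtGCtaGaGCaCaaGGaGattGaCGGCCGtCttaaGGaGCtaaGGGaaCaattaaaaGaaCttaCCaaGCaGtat
Psma2: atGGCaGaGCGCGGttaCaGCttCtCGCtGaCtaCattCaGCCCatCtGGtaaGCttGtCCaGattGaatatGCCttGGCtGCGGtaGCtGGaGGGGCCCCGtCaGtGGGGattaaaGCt
Psmb5: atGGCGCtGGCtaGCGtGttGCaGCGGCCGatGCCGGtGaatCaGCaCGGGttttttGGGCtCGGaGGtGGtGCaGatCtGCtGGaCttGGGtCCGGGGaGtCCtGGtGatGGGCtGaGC
Psmd3: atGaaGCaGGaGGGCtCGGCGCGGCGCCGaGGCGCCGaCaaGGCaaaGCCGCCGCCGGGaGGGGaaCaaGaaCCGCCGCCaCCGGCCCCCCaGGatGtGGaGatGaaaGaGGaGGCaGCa
The share of capitals in these stretches is 47.5% in Psmc6, 55.0% in Psma2, 63.3% in Psmb5 and 70.0% in Psmd3. Over whole transcripts the 7 alpha subunits had a median of 44.98% GC and the 7 constitutive beta subunits 52.24%. The median of all 39 members was 49.72%, and that of the genes tested in P14 SC was 50.08%.

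Library totals ran from 2558141 to 48263706 estimated counts (median 22212787), and the members made up 0.0534% to 0.796% of them. The lowest total was that of SC EU P14 replicate 1. Replicate 2 had 6034159, and the LGN EU libraries 5908398 and 6322911, against 21487576 to 23308561 in SC EU P14 replicates 3 to 5. Several libraries stood apart, or their counts did not follow their labels. Fmr1 was higher in SC EU libraries labelled fmr1ko (11.8, 3.11 and 15.7 CPM, counts scaled to the library total) than in wild-type replicates 3 to 5 (1.37, 1.74 and 0.421). Wild-type SC EU P14 replicates 1 and 2 had 0 and 8.09 CPM, and Fmr1 overlapped in the other fmr1ko comparisons. Counts per gene do not show whether an allele is disrupted, so these are called libraries labelled fmr1ko. Sarm1 had 2.40, 4.37 and 1.25 CPM in the sarm1ko libraries and 19.7 to 32.4 in the wild-type chase. In the TRAP library replicate 2 labelled fmr1ko, 10 rod photoreceptor markers summed to 125490 CPM, against 50.5 and 86.2 in the other 2 of its group, and 10 myelin markers to 33.8, against 12581 and 6904.7. Immunopanned RGC with EU capture held 8115.2 to 122330 CPM of rod markers and 203.76 to 592.18 of 12 RGC markers. Immunopanned RGC replicate 1 held members at 0.0534% of counts, and replicates 2 and 3 held 135130 and 123470 CPM of 5 lens crystallin markers. All genes with a symbol starting in Crya, Cryb or Cryg took 30.2% and 33.0% of the counts in replicates 2 and 3.

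Levels between genes are given in TPM as deposited, a unit scaled by transcript length and library total. Over the 48 libraries the constitutive core subunits held the top places. Psmb4, a beta subunit without a proteolytic site, had the highest median, 567 TPM, followed by Psmb5 (445), Psmb6 (445), Psma7 (409) and Psmb3 (305). The highest of the regulatory particle was Psmd4, a ubiquitin receptor, with a median of 257 TPM. The ATPases ran from 20.1 TPM (Psmc6) to 191 TPM (Psmc5), so subunits that stand in equal number in the assembled particle differed widely in RNA. The lowest of the constitutive set were Psmd10 (13.2 TPM) and Psmd5 (17.5 TPM), chaperones that help to assemble the base and are not part of the finished particle. Of the tissue-restricted or inducible genes, only Psmb10 (median 120 TPM) was among the first 20 in order; Psmb8 had 7.04, Psmb9 1.14, and Psmb11, the thymus subunit, 0.0817 TPM. Psma8, the testis counterpart of Psma7, was at 0 in 34 of 48 libraries. Neighbours in this order such as Psmb5 and Psmb6 overlapped over their whole ranges (2.59 to 1517.1 and 9.23 to 1395.5 TPM).

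**Figure D1:**
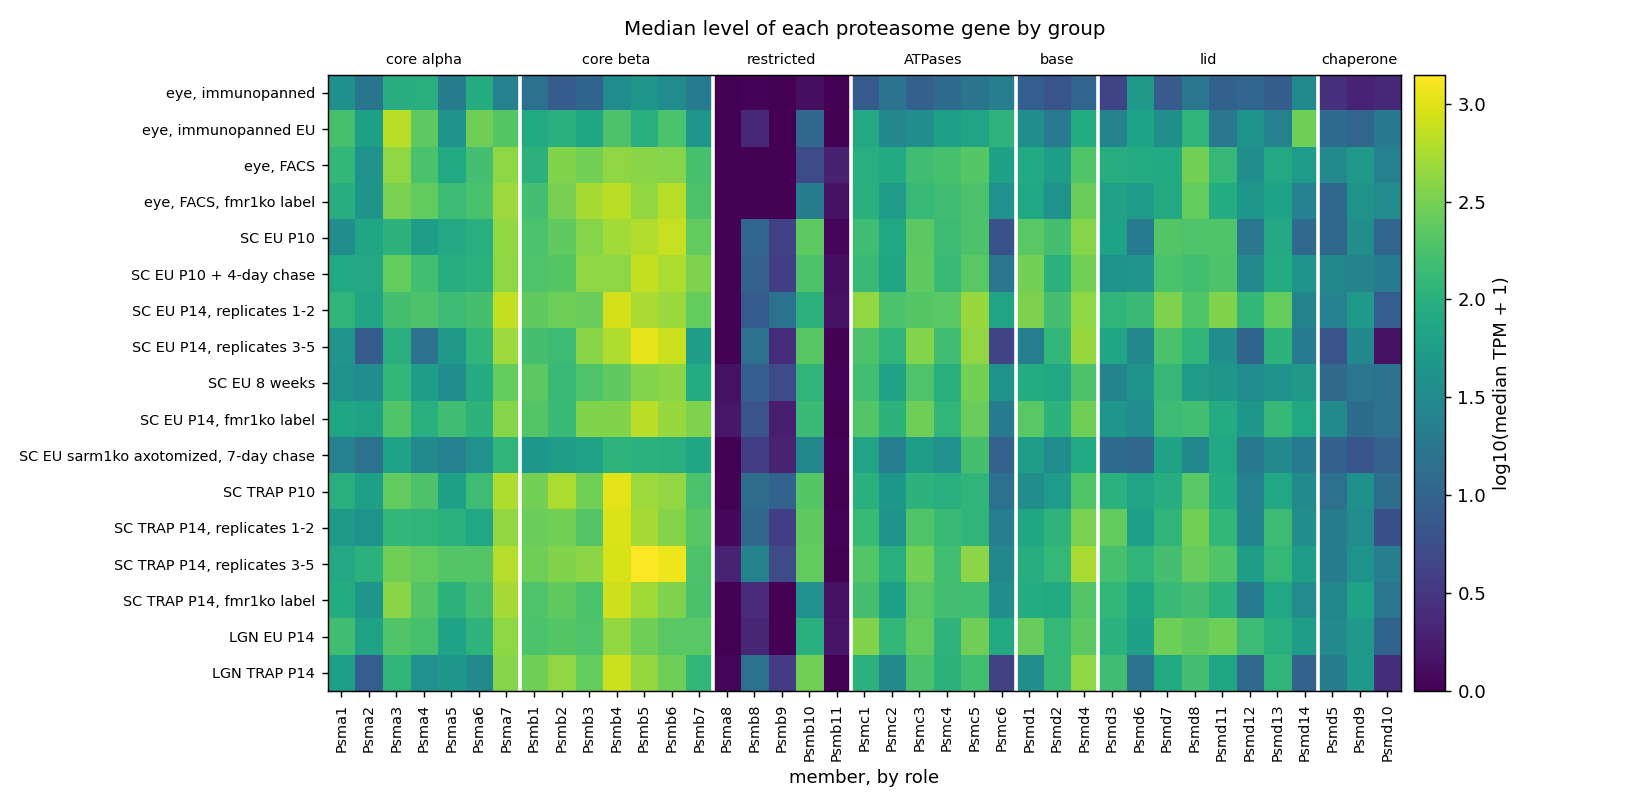
Median deposited TPM of each of the 39 members (columns, ordered by role) in each group of libraries (rows), as the log10 of TPM + 1. The beta subunits and Psma7 are high in nearly all rows, the row of immunopanned RGC without EU capture is the lowest for the constitutive beta subunits, and Psmb10 is higher in the wild-type brain rows than in the eye rows.

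The sum of the 39 members ran from 3927.8 to 10870 TPM in 47 libraries once 3 kinds of very abundant transcripts (the ribosomal RNA gene CT010467.1, mitochondrially encoded genes and lens crystallins) were taken out of the total. The exception was immunopanned RGC replicate 1, with 241.65 TPM. As deposited, the sums were lower where those transcripts were abundant, as in the sarm1ko libraries, at 1685.8, 4166.6 and 1000.3 TPM deposited against 6434.1, 7696.3 and 5759.8 rescaled. The LGN TRAP sums hardly moved, at 3922.3 to 8229.4 TPM deposited and 3927.8 to 8247.5 rescaled.

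Psmb10, the inducible counterpart of Psmb7, was high in wild-type brain libraries and low in wild-type eye libraries. In wild-type SC EU it had 27.7, 178, 210, 257 and 107 TPM at P14 (replicates 1 to 5) and 248, 230 and 190 at P10, and in SC TRAP 314, 157, 468, 246 and 110 at P14. In LGN TRAP it had 462, 226 and 295 TPM. Eye cells were lower: 0, 4.10 and 13.0 TPM in FACS cells, 12.3, 6.32 and 10.6 in immunopanned EU cells, and 0.258, 0.297 and 0.417 in immunopanned cells without EU capture. The wild-type brain libraries named here all lay above these eye libraries. The groups met elsewhere: FACS cells labelled fmr1ko had 18.01, 68.5 and 19.8 TPM, the sarm1ko libraries 26.6, 70.0 and 26.0, and TRAP replicate 2 labelled fmr1ko 0. Within the pair of Psmb7 and Psmb10, Psmb10 took 30.1% to 87.8% of the TPM in SC EU P14 replicates 3 to 5. It took 0% to 10.51% in wild-type FACS cells. SC EU P14 replicates 1 and 2 had 12.6% and 36.2%, and immunopanned EU cells 13.2%, 12.4% and 20.4%. Over the 3 inducible subunits and their 3 constitutive counterparts, the inducible share was 9.09% to 12.8% in SC EU P14 replicates 3 to 5. It was 13.3% to 36.1% in LGN TRAP and 0% to 1.85% in wild-type FACS cells. SC EU P14 replicates 1 and 2 had 5.97% and 10.4%, and immunopanned EU cells 1.35%, 2.96% and 10.6%. In both shares SC EU P14 and immunopanned EU libraries thus overlapped.

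Psmb8 had at most 34.5 TPM in any library, with 13.4, 20.5 and 9.01 TPM in SC EU P14 replicates 3 to 5 and 0, 0 and 3.02 in FACS cells. Psmb9 reached its highest value, 21.5 TPM, in SC EU P14 replicate 1 and was at 0 in 16 libraries. In SC EU P14 replicate 1, where the 3 inducible subunits summed to 60.9 TPM, Psmb10 held 27.7 of it. These subunits are abundant in immune cells, and 12 microglia markers, all detected in SC EU P14 replicates 3 to 5, summed there to 298 to 477 CPM against 12.6 to 15.8 in FACS cells. In immunopanned EU cells the microglia sum was 45.3, 424 and 849 CPM, beside Psmb10 at 12.3, 6.32 and 10.6 TPM. Mitochondrially encoded genes took 55.2% and 46.5% of the counts in replicates 2 and 3 of these cells. The part of microglia in the Psmb10 level was not tested. In bulk RNA, fewer cells of a type and less RNA per cell cannot be told apart.

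**Figure D2:**
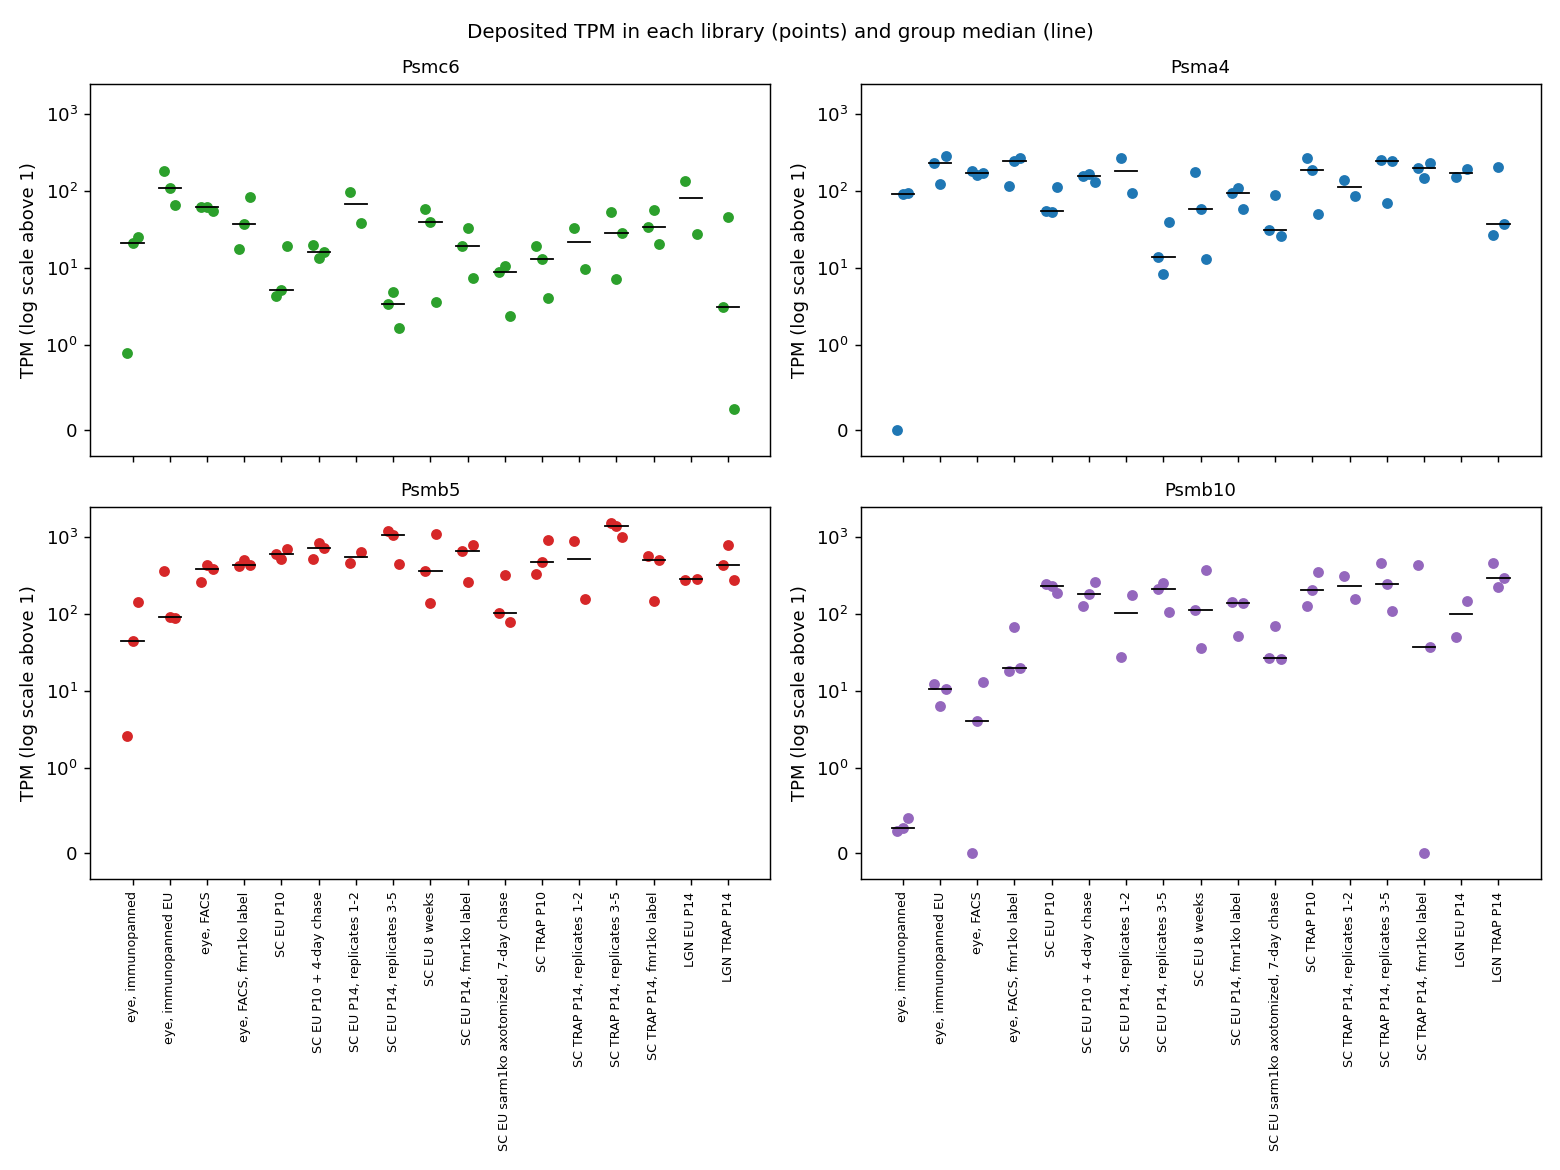
Deposited TPM of selected members in each of the 48 libraries, by group, with the group median as a line (log scale above 1 TPM). Psmc6 and Psma4 vary over more than 10-fold between P14 SC EU libraries, and Psmb10 is higher in the wild-type brain libraries than in the wild-type eye libraries.

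The balance of beta to alpha subunits moved from library to library. It is given here as the median TPM of the 7 constitutive beta subunits over that of the 7 alpha subunits. In SC EU at P14 this ratio was 1.58 and 2.80 in replicates 1 and 2 and 8.96, 7.86 and 4.72 in replicates 3 to 5. It was 5.83, 4.57 and 3.50 in SC EU at P10, 1.37, 1.47 and 15.6 at 8 weeks, 10.55, 3.45 and 7.37 in LGN TRAP, and 1.74, 5.75 and 1.76 in SC TRAP P14 replicates 3 to 5. Immunopanned EU cells had 1.30, 0.512 and 0.436. Libraries with the same label, such as the 3 at 8 weeks, thus could differ widely in this ratio.

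The same spread is seen when the 34 members that are neither tissue-restricted nor inducible are sorted by GC content. With limits chosen after the values were seen, the 13 members under 48% GC had a median of 10.3, 18.2 and 39.4 TPM in SC EU P14 replicates 3 to 5, and 107 and 88.4 TPM in replicates 1 and 2. The 11 members over 52% GC had 367, 375 and 186 TPM in replicates 3 to 5 and 241 and 312 in replicates 1 and 2. The Spearman correlation of TPM with GC over the 34 members, a description of genes that share each library, was 0.64 to 0.75 in replicates 3 to 5, 0.37 and 0.64 in replicates 1 and 2, and -0.31 to -0.06 in immunopanned RGC without EU capture. The median of the low-GC members thus varied more between the P14 EU libraries than that of the high-GC members.

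The comparison of TRAP with EU asks which transcripts are bound to ribosomes beyond their share of labelled RNA. At P14 in SC (replicates 3 to 5 of each), 12 of 38 tested members were higher in TRAP and 0 were lower by edgeR's quasi-likelihood test with Benjamini-Hochberg adjustment, against 14.4% of all tested genes (5.73% higher, 8.64% lower). They were 4 of 7 alpha subunits (Psma2, Psma3, Psma4, Psma5), 5 of 8 lid subunits (Psmd6, Psmd8, Psmd11, Psmd12, Psmd14), 1 of 6 ATPases (Psmc6), 1 of 7 constitutive beta subunits (Psmb2) and Psma8. Psma8 passed the filter on low counts only through the TRAP libraries. It could therefore be called only higher, and its call carries no weight. The median log2 fold change was 0.63 over the members and -0.01 over all tested genes. For each of the 12, the 3 TRAP libraries lay above the 3 EU libraries, though for Psma8 this carries no weight either. Of all tested genes, 37.2% had groups without overlap in either direction.

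Levels within a comparison are CPM after scaling by the trimmed mean of M-values. Psmc6, an ATPase of the base, had 56.4, 10.48 and 31.6 CPM in TRAP and 3.07, 4.41 and 2.91 in EU. The EU libraries were close together and the TRAP libraries spread over 5-fold. The log2 fold change was 3.24 ± 0.66 (SE, n = 3 and 3, adjusted p = 0.0128, edgeR). Psma4, of the alpha ring, had 173, 49.5 and 126 CPM in TRAP and 9.79, 6.62 and 29.9 in EU, a log2 fold change of 2.92 ± 0.64 (adjusted p = 0.0163, edgeR). Psmd14, the deubiquitinase of the lid, had 69.4, 61.7 and 45.2 CPM against 9.22, 14.9 and 21.1, a log2 fold change of 1.96 ± 0.43 (adjusted p = 0.0166, edgeR). In both, the highest EU library was replicate 5. Psmd12, a lid scaffold, had 55.9, 70.5 and 48.9 CPM against 11.5, 3.99 and 18.7 (log2 fold change 2.36 ± 0.55, adjusted p = 0.0192, edgeR).

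Psma3 rose from 80.8 ± 30.5 CPM in EU to 233 ± 45.6 in TRAP (SD, n = 3 each; log2 fold change 1.53, adjusted p = 0.0225, edgeR). Psma5 rose from 43.2 ± 11.1 to 118 ± 29.8 CPM (1.45, adjusted p = 0.0253, edgeR). Psmd11, a lid scaffold, rose from 49.3 ± 18.7 to 133 ± 6.55 CPM (1.43, adjusted p = 0.0259, edgeR). Psma8 was at 0 in the 3 EU libraries and had 0.398, 0.526 and 1.88 CPM in TRAP. Against a floor of 3 counts over the EU group this is at least 19.1-fold higher, at a level where a few reads decide. With Psma8 at that bound the members' median stayed 0.63. Psma8 is closely related to Psma7, and how shared reads were divided between them was not tested.

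The catalytic subunits were not called. Psmb5 had 703, 658 and 351 CPM in TRAP and 581, 590 and 235 in EU, with replicate 5 lowest in both (log2 fold change 0.29 ± 0.44, adjusted p = 0.708, edgeR). Psmb6 had a log2 fold change of 0.47 ± 0.41 and Psmb7 one of 0.47 ± 0.62. Among their inducible counterparts Psmb8 had 0.51 ± 0.54, Psmb9 1.66 ± 1.28 and Psmb10 0.46 ± 0.54, with overlapping libraries for Psmb8 and Psmb10.

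**Figure D3:**
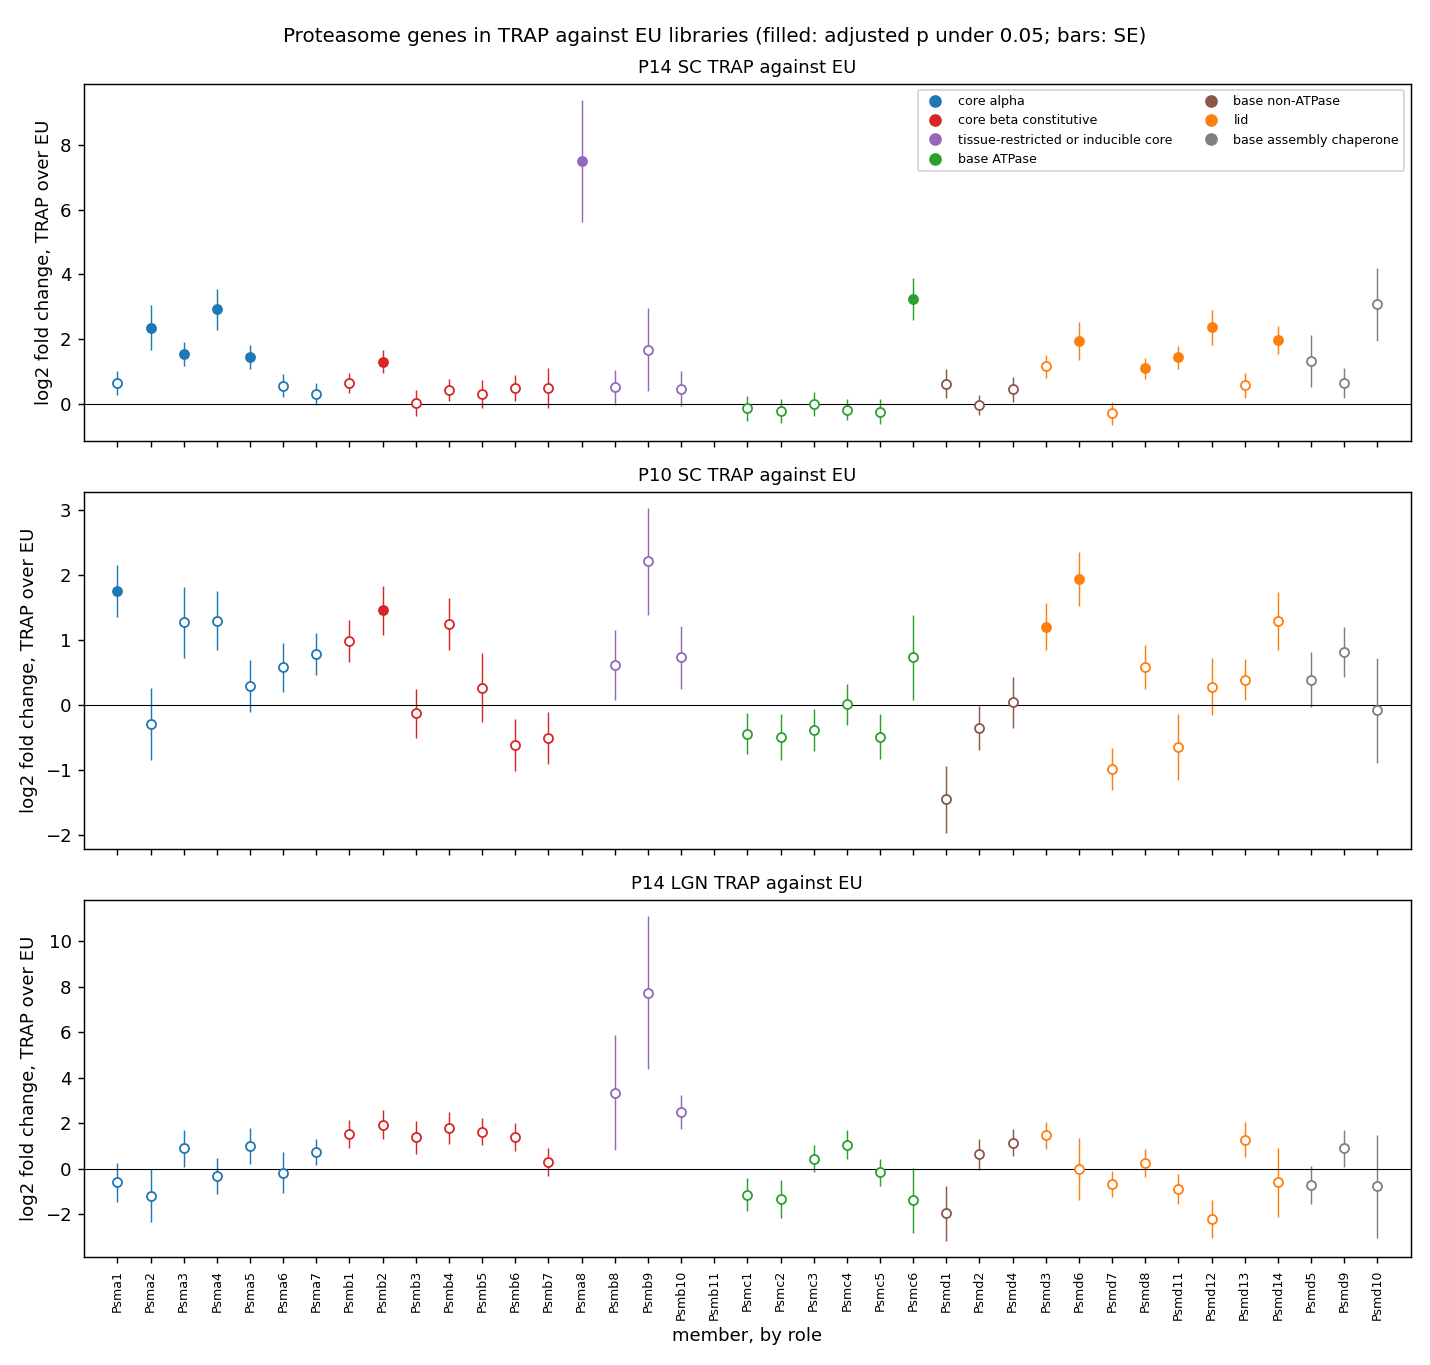
Log2 fold change of TRAP over EU (points, with SE) for each member ordered by role, in P14 SC, P10 SC and P14 LGN; filled points have an adjusted p under 0.05 and untested members have no point. At P14 in SC the filled points are mainly alpha and lid subunits, at P10 there are 4, and in LGN there are none; the fitted folds of Psma8 in SC and Psmb9 in LGN, against EU groups at 0, depend on the prior count.

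The 12 members called at P14 had a median GC content of 46.03%, and the 26 not called 51.92%. The 12 include Psma8 (42.73% GC), whose call carries no weight. Over the 38 members, Psma8 included, the Spearman correlation of the fold change with GC was -0.59, against -0.15 over all tested genes. With the trend on GC removed over all genes, 12 members were called, 10 of them the same, again with Psma8, against 18.2% of all genes (7.26% higher). Psmd6 and Psmd14 lost the call and Psmd3 and Psmd10 gained one. The other P14 libraries did not show the rise. With replicates 1 and 2 of each capture, a comparison added after seeing the data, 0 of the members were called and the members' median was -0.07. Psmc6 had a log2 fold change of -1.39, Psmd12 -1.86 and Psmd11 -1.10. Psma4 also changed sign, while Psma3, Psma5 and Psmd14 kept their direction. With all 5 libraries of each capture 3 members were called higher.

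Single libraries decided the count as well. It was 0 without TRAP replicate 3, 2 without TRAP replicate 5, 4 without TRAP replicate 4, 1 without EU replicate 3 and 6 without EU replicate 4. Here and below, counts for libraries left out or exchanged stand without the share of all genes unless it is given. Such counts do not speak of the members alone. Several marker lists moved with the capture. On the same scale microglia markers summed to 758 to 1287 CPM in TRAP and 365 to 514 in EU, and 3 of 12 were called higher. RGC markers summed lower in TRAP, 1312 to 2357 against 2427 to 3353 CPM, with 0 of 11 tested called. Midbrain neuron markers summed higher, 531 to 702 against 458 to 525 CPM, with 1 of 8 called higher and 1 lower. The part of these markers in the member values was not tested.

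Other genes of the pathway at P14 are given beside 5.73% higher and 8.64% lower among all tested genes. None of 14 tested assembly factors, activators and inhibitors was called, with a median log2 fold change of 0.54. Of 18 genes for ubiquitin, shuttles and deubiquitinases 2 were higher and 0 lower (median 0.15). Of 4 genes for transcription factors and their processing 1 was higher (median 0.74). Txnl1, a thioredoxin-like protein bound to the regulatory particle, rose (log2 fold change 1.78, adjusted p = 0.0292, edgeR), as did the ubiquitin fusion gene Rps27a (1.87, adjusted p = 0.0422). Ngly1, the enzyme that activates the proteasome's transcription factor Nfe2l1, rose (4.60 ± 0.90, adjusted p = 0.011, edgeR) from 0.650 ± 0.501 to 15.8 ± 7.86 CPM. With replicates 1 and 2, Ngly1 had -1.65.

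At P10, 4 of 37 tested members were higher in SC TRAP than in SC EU and 0 lower (edgeR), against 17.4% of all tested genes (6.38% higher, 11.1% lower). Psmd6, a lid subunit, had 98.7, 81.6 and 107 CPM in TRAP and 17.6, 18.2 and 38.8 in EU (log2 fold change 1.94 ± 0.41, adjusted p = 0.0115, edgeR). Psma1, of the alpha ring, had 73.1, 97.3 and 115 CPM against 27.3, 18.3 and 38.7 (1.76 ± 0.40, adjusted p = 0.0139). In both genes EU replicate 3 was the highest of its group and remained below every TRAP library. Psmb2 had 244, 339 and 509 CPM against 146, 130 and 121 (1.46 ± 0.37, adjusted p = 0.0237, edgeR), and Psmd3 had 313, 207 and 271 against 151, 94.7 and 96.3 (1.21 ± 0.36, adjusted p = 0.0406). Psmb2 and Psmd6 were called at both ages. With the trend on GC removed Psmd3 was no longer called.

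The members' median at P10 was 0.39, against -0.08 over all tested genes, and turned to -0.07 (all genes -0.33) with limma on log2(TPM + 1). Psmc6, the top member at P14, had 27.0, 27.5 and 7.55 CPM in TRAP and 7.74, 6.37 and 23.1 in EU at P10, and so overlapped. Psmb5 was at 0.27 ± 0.53, Psmb6 at -0.61 ± 0.41, Psmb7 at -0.50 ± 0.40, Psmb8 at 0.62 ± 0.53, Psmb9 at 2.21 ± 0.82 and Psmb10 at 0.74 ± 0.49, none of them called. The Spearman correlation of fold change with GC over the 37 members was -0.06. The count was 0 without EU replicate 1, 2 without EU replicate 2 and 7 without TRAP replicate 1. Microglia markers summed to 712 to 1094 CPM in TRAP and 370.0 to 427 in EU, with 4 of 12 called higher. RGC markers summed lower in TRAP, 1510 to 1870 against 2404 to 3462 CPM, with 0 of 11 tested called. Endothelial markers summed higher, 379 to 613 against 207 to 307 CPM, with 1 of 6 called higher and 2 lower. The part of these markers was not tested.

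The change of the TRAP to EU ratio between P10 and P14 was tested as an interaction. None of 39 members was called by edgeR or by DESeq2, 7 had an unadjusted p under 0.05 (11% of all genes), and 0% of all genes were called. The different counts at the ages are therefore not shown to be a difference between them. Of the other pathway genes at P10, Akirin2, which carries proteasomes into the nucleus, rose (log2 fold change 2.23, adjusted p = 0.0166, edgeR), as did the ubiquitin receptor Adrm1 (1.22, adjusted p = 0.0489), and Ecpas, an adaptor that binds the assembled proteasome, fell by 1.33 (adjusted p = 0.0459). These were 2 higher and 1 lower of 14, beside 6.38% higher and 11.1% lower among all tested genes at P10. Of the 18 ubiquitin genes Txnl1 (3.23, adjusted p = 0.00327) and Rps27a (1.79, adjusted p = 0.0359) rose. Ddi2, the protease that cleaves Nfe2l1, fell by 1.21 (adjusted p = 0.0425, edgeR), the 1 called of 4 such genes.

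In LGN at P14, 0 of 37 tested members were called between 3 TRAP and 2 EU libraries by edgeR and by DESeq2, 9 had an unadjusted p under 0.05 (27.4% of all genes did), and 1.4% of all tested genes were called (0.235% higher, 1.17% lower). The members' median was 0.44 against -0.24 over all genes, and turned to -0.55 (all genes -0.84) with limma on log2(TPM + 1). Psmb10 had 196, 70.6 and 165 CPM in TRAP and 18.5 and 32.4 in EU (2.50 ± 0.76, adjusted p = 0.0641, edgeR), which do not overlap. Psmb5 was at 1.62 ± 0.60 and Psmb6 at 1.38 ± 0.62, also without overlap, and Psmb7 at 0.29 ± 0.63. Groups without overlap were 52.2% of all tested genes here. Psmb8 was at 3.34 ± 2.54, and Psmb9 is at 0 in both EU libraries and in 1 TRAP library. Here the correlation of fold change with GC over members was 0.75 (all genes 0.59), opposite in sign to P14 SC. Microglia markers summed to 745 to 1220 CPM in TRAP and 137 to 257 in EU. Myelin markers were also higher in TRAP, at 28878 to 42061 against 13087 to 14734 CPM. Midbrain and target-region neuron markers were lower, at 152 to 224 against 519 to 1759 CPM. The part of these markers was not tested. Rps27a (4.91 ± 1.02, adjusted p = 0.0481, edgeR) was the only called gene of the 3 pathway lists.

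The comparison of SC EU (replicates 3 to 5) with immunopanned RGC EU asks which labelled transcripts are enriched in axons over cell bodies. In the SC, 1 of 36 tested members was higher and 10 were lower (edgeR), against 22.4% of all tested genes (11% higher, 11.4% lower). The lower members were 5 of 7 alpha subunits (Psma1, Psma2, Psma3, Psma4, Psma6), 3 of 8 lid subunits (Psmd6, Psmd12, Psmd14), Psmc6 and Psmd10. None of the 7 constitutive beta subunits was called. Psmc6 had 2.11, 3.0 and 2.09 CPM in SC and 190, 259 and 133 in the panned cells (log2 fold change -6.33 ± 0.62, adjusted p = 0.00185, edgeR). Psmd14 had 6.34, 10.1 and 15.1 CPM against 85.7, 373 and 281 (-4.55 ± 0.73, adjusted p = 0.00504). The 3 SC libraries lay below the 3 panned libraries in both genes; 46.8% of all tested genes had groups without overlap. Within the panned group Psmd14 itself varied over a wide range.

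Psma4 was at -4.66 ± 0.81, Psma3 at -3.34 ± 0.62, Psma1 at -3.24 ± 0.53, Psmd12 at -3.43 ± 0.72, Psmd6 at -2.92 ± 0.73 and Psma6 at -2.81 ± 0.59 on the log2 scale, with adjusted p from 0.00547 to 0.0229 (edgeR). Psmb10 was the member that rose: 53.2, 70.4 and 23.7 CPM in SC against 4.64, 4.12 and 12.7 (2.78 ± 0.81, adjusted p = 0.0356, edgeR). Psmb5 had 400, 401 and 168 CPM against 152, 112 and 96.8 and was not called. The 10 lower members had a median GC of 43.59% and the 25 not called 51.6%, and the correlation of fold change with GC was 0.78 over members and 0.44 over all genes. With the trend on GC removed, 12 members were called, all lower (13.8% of all genes), 9 of them the same. Psma3 and Psmb10 were no longer called there. Psmb10 was also not called with all 5 SC libraries, nor without SC replicate 3 or 4 or panned replicate 1 or 2.

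The 2 groups differ in tissue as well as compartment: all 10 rod markers were lower and all 10 myelin markers higher in SC, and their part was not tested. The count was 4 without SC replicate 3 and 4 without SC replicate 4. With FACS eye cells as the cell body group 6 members were higher and 8 lower (18.7% and 16.7% of all genes). With immunopanned RGC without EU capture 0 were called (share of all genes not given here). The members' median of -0.20 (all genes 0.11) was 0.97 with limma on log2(TPM + 1), where all genes were at 1.01. Of the other pathway genes 1 rose (Uchl1, a neuronal deubiquitinase, by 2.98) and 10 fell, beside 11% higher and 11.4% lower among all genes. The falls included Ngly1 (-6.51, adjusted p = 0.00549), Txnl1 (-3.69, adjusted p = 0.00477) and Usp14 (-5.17, adjusted p = 0.00478, edgeR), a deubiquitinase of the regulatory particle.

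**Figure D4:**
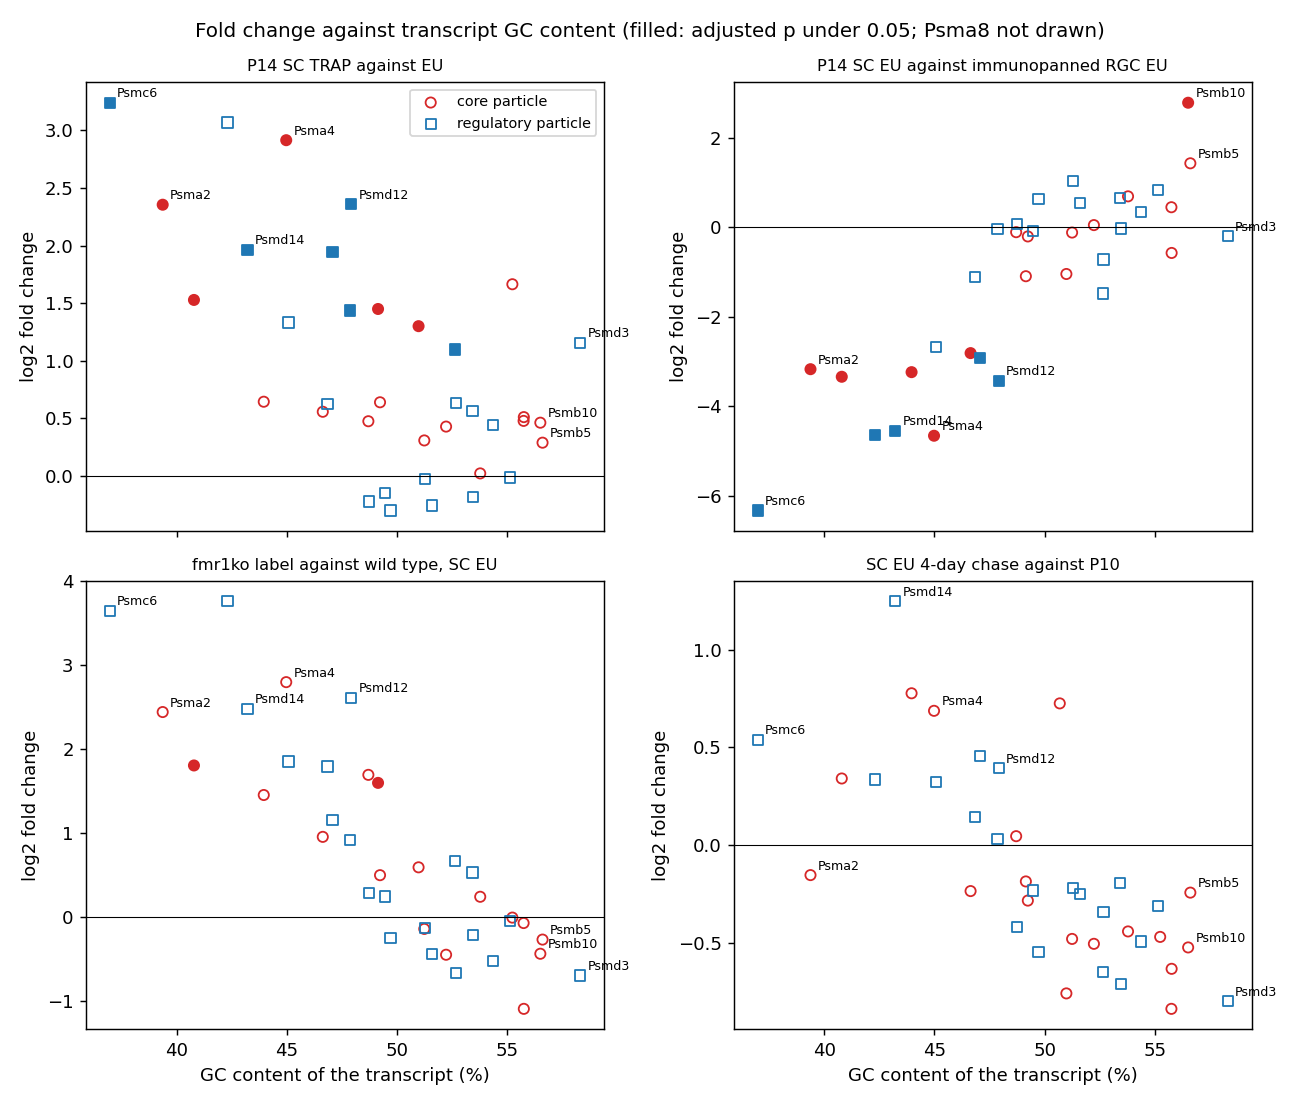
Log2 fold change of each tested member against the GC content of its transcript, in 4 comparisons, by particle; filled points have an adjusted p under 0.05 and Psma8 is not drawn. Low-GC members such as Psmc6 (36.97%) lie highest in P14 SC TRAP against EU and lowest in SC EU against the panned cells.

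No member was called between ages or target regions. For SC EU at P14 against P10, 0 of 37 were called by edgeR and 5, all lower, by DESeq2 (4.8% of all genes lower); 11 had an unadjusted p under 0.05 (18.3% of all genes), and 2.03% of all genes were called (0.91% higher, 1.12% lower). Without P14 replicate 5 the count was 9, with no share of all genes beside it. Of the other pathway genes Rps27a fell by 2.28 (adjusted p = 0.0209, edgeR) from P10 to P14. For SC TRAP at P14 against P10, 0 of 38 were called by edgeR and DESeq2 (5 at unadjusted p under 0.05, beside 14.4% of all genes; 0% of all genes called). For SC EU at 8 weeks against P14, 0 of 37 were called by edgeR and 3, all higher, by DESeq2 (4.7% of all genes higher; by edgeR 4 at unadjusted p under 0.05, beside 9.14% of all genes, and 0% of all genes called), and 9 without 8-week replicate 3, the library in which Psmc6 had 3.60 TPM against 57.6 and 39.5 in the other 2. For SC (replicates 1 and 2) against LGN, 0 of 36 members were called in EU and 0 of 37 in TRAP by both tools, with 2 and 0 at unadjusted p under 0.05 (3.22% and 2.65% of all genes), and 0% of all genes called.

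The 4-day chase was meant to ask which labelled transcripts persist in the axon after labelling at P10. The chased SC is also 4 days older than the P10 SC, so age and chase change together and cannot be told apart. Against P10 without chase, 0 of 38 members were called by edgeR and DESeq2, 8 had an unadjusted p under 0.05 (18.1% of all genes), and 0.00597% of all genes were called. The members' median was -0.24, and 0.05 over all genes. Psmb5 had 516, 846 and 720 TPM after the chase, and Psmc6 19.6, 13.5 and 16.0 TPM against 4.30, 5.15 and 19.0 at P10. The correlation of fold change with GC was -0.77 over members and -0.54 over all genes. Myelin markers summed to 6172 to 10785 CPM after the chase and 2098 to 3190 at P10. Astrocyte markers summed to 3520 to 4140 against 1838 to 3313 CPM, and RGC markers to 1904 to 2668 against 2689 to 3857. The part of these markers was not tested. The comparisons that use SC EU at P14 or P10 share those libraries.

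In axotomized sarm1ko mice, whose cut axons are known to persist, EU RNA after a 7-day chase was compared with that of uninjured wild-type axons after 4 days. Of 38 tested members 0 were higher and 9 lower (edgeR), against 21.2% of all tested genes (9.86% higher, 11.3% lower). The fold changes of 34 of 38 lay below 0, with a median of -0.64 against 0.00 over all genes, and 18 had an unadjusted p under 0.05 (35.3% of all genes). The lower members were 5 of 7 constitutive beta subunits (Psmb2, Psmb3, Psmb5, Psmb6, Psmb7), Psmb10, 2 alpha subunits (Psma3, Psma4) and, of 20 members of the regulatory particle, Psmd8. All 3 subunits with constitutive proteolytic sites were among them.

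Psmb5 had 64.1, 109 and 81.7 CPM in sarm1ko and 184, 324 and 230 in the wild-type chase (log2 fold change -1.53 ± 0.32, adjusted p = 0.00494, edgeR). Psmb6, with the caspase-like site, had 46.4, 74.8 and 55.2 CPM against 132, 204 and 146 (-1.45 ± 0.30, adjusted p = 0.00514). Psmb3 had 31.3, 45.5 and 19.7 CPM against 70.3, 132 and 106 (-1.67 ± 0.35, adjusted p = 0.00547). In these genes the sarm1ko libraries all lay below the wild-type libraries, where 40.4% of all tested genes had groups without overlap, and sarm1ko replicate 2 was the highest of its group. Psmb2 was at -1.21 ± 0.31 (adjusted p = 0.0149), Psmb7, with the trypsin-like site, at -1.12 ± 0.30 (0.0176), Psmd8 at -1.02 ± 0.30 (0.027), Psmb10 at -1.20 ± 0.35 (0.0274) and Psma3 at -1.10 ± 0.34 (0.032, all edgeR). Psmd12 had 36.1, 44.8 and 44.2 CPM against 26.3, 29.8 and 25.3 and was not called.

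Of 14 assembly factors, activators and inhibitors 6 fell and 1 rose (median log2 fold change -0.81), beside the 11.3% lower and 9.86% higher among all genes. Sem1, a small lid subunit, fell by 2.31 (adjusted p = 0.00394), Psme1, a subunit of an alternative cap, by 1.75 (adjusted p = 0.007, edgeR), and Psmg3, a chaperone of alpha ring assembly, by 1.67 (adjusted p = 0.0114). Of 18 ubiquitin genes 6 fell and 2 rose (median -0.29). Rad23b, a shuttle that carries ubiquitinated proteins, fell by 1.74 (adjusted p = 0.00191, edgeR) and the deubiquitinase Uchl1 by 1.73 (adjusted p = 0.005). Txnl1 rose from 24.1 ± 8.60 CPM in the wild-type chase to 69.4 ± 6.31 in sarm1ko (log2 fold change 1.53 ± 0.32, adjusted p = 0.00528, edgeR), though limma on log2(TPM + 1) gave -0.043. None of the 4 genes for transcription factors and their processing was called (median 0.44).

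Genotype, axotomy, age and length of chase change together in this comparison and cannot be told apart. CT010467.1 took 27.4% to 48.5% of counts in the sarm1ko libraries and 0.310% to 9.46% in the wild-type chase. Leaving out that gene and mitochondrially encoded genes gave 9 called members, and removing a trend on transcript length gave 3 (1 higher, 2 lower, the latter Psmb3 and Psmb5). With the trend on GC removed Psmb10 and Psmd8 were no longer called. On the scale of the member values, RGC markers summed to 892 to 1156 CPM against 1315 to 1946, with 2 of 11 tested called lower (median log2 fold change -0.87). Microglia markers summed to 166 to 305 against 238 to 344, with 1 of 12 called lower (median -0.43). Myelin markers went the other way, at 10168 to 12378 CPM against 4355 to 7450, with 3 of 10 called higher and 2 lower (median 0.49). Astrocyte markers overlapped, at 2615 to 2934 CPM against 2484 to 2860. The part of these markers was not tested. The count was 3 without sarm1ko replicate 1 or replicate 3, 5 without chase replicate 2 and 15 without sarm1ko replicate 2.

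In SC EU libraries labelled fmr1ko, 2 of 37 tested members were higher than in wild type (edgeR), against 1.11% of all tested genes (0.816% higher, 0.29% lower). Both belong to the alpha ring. Psma5 had 108, 113 and 121 CPM under the label and 28.2, 48.1 and 36.7 in wild type, a log2 fold change of 1.60 ± 0.30 (adjusted p = 0.0461, edgeR). Psma3 had 265, 289 and 184 CPM against 54.6, 54.7 and 102 (1.80 ± 0.35, adjusted p = 0.0488). Psmc6 had 23.2, 80.7 and 9.42 CPM against 2.62, 3.86 and 2.56 and was not called. The correlation of fold change with GC over the 37 members was -0.86 (all genes -0.48), and with the trend on GC removed neither Psma5 nor Psma3 was called. The count was 0 with all 5 wild-type libraries, 12 without wild-type replicate 5, and 0 or 1 without any other single library. The share of all genes called in these refits is not given, so the counts do not speak of the members alone.

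In SC TRAP, 0 of 39 members were called under the fmr1ko label by edgeR, 11 had an unadjusted p under 0.05 (17.9% of all genes), 37 fold changes lay below 0 (median -0.81, all genes 0.05), and DESeq2 called 1 higher and 7 lower (9.5% and 7.48% of all genes). None of all tested genes was called (0%). Without replicate 2, the library high in rod markers, 6 were lower: Psma2, Psmb5, Psmb6, Psmd4, Psmd8 and Psmd13, with log2 fold changes from -2.04 to -1.74 and adjusted p from 0.0449 to 0.0492 (edgeR), where 6.8% of all genes were lower and 6.1% higher. Microglia markers summed to 24.3 to 365 CPM under the label and 848 to 1448 in wild type (median log2 fold change -2.69, 0 of 12 called). Astrocyte markers summed to 1280 to 3469 CPM against 4482 to 6530 (median -1.39, 0 of 8 called). The part of these markers in the TRAP values and the TRAP to EU ratio was not tested. In FACS eye cells 0 of 36 were called by edgeR, 8 had an unadjusted p under 0.05 (12.7% of all genes), 0.0593% of all genes were called (0.0528% higher, 0.00659% lower), and DESeq2 called 6 higher and 1 lower (4.67% and 5.09% of all genes).

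The difference of the TRAP to EU ratio between the fmr1ko label and wild type was tested as an interaction. It was lower for 5 of 39 members and higher for 0 (edgeR), against 5.92% of all tested genes (2.68% higher, 3.24% lower), and 36 of 39 members lay below 0 (median -1.71, all genes -0.11). Psmd14 had 21.2, 39.6 and 32.1 CPM in TRAP under the label and 77.7, 69.4 and 50.1 in wild type; in EU it had 68.6, 117 and 34.7 under the label and 7.87, 13.0 and 18.6 in wild type. TRAP was thus lower and EU higher under the label, without overlap in either (as in 29.4% of all genes in TRAP and 32.1% in EU), and the difference of log2 ratios was -3.59 ± 0.75 (adjusted p = 0.0248, edgeR). Psmd12 was at -4.74 ± 1.11 (adjusted p = 0.0328), Psma2 at -4.09 ± 0.998 (0.0376), Psmd13, a lid subunit, at -2.33 ± 0.60 (0.0429) and Psma5 at -2.23 ± 0.60 (0.0486, all edgeR).

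Without TRAP replicate 2 of the label, 12 members were lower and 0 higher, among them all 5 above, and the median was -1.49; of all genes 7.17% were lower and 6.83% higher. The count was 2 without TRAP replicate 1 of the label, 0 without any 1 of 8 other libraries (the 3 EU libraries of the label, the 3 wild-type TRAP libraries and wild-type EU replicates 3 and 4), and 1 with all 5 wild-type libraries of each capture. The correlation with GC was 0.64 over members and 0.02 over all genes, and with the trend on GC removed 3 members were called, without Psma5 and Psmd13, and the median was -0.68 (all genes 0.62).

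**Figure D5:**
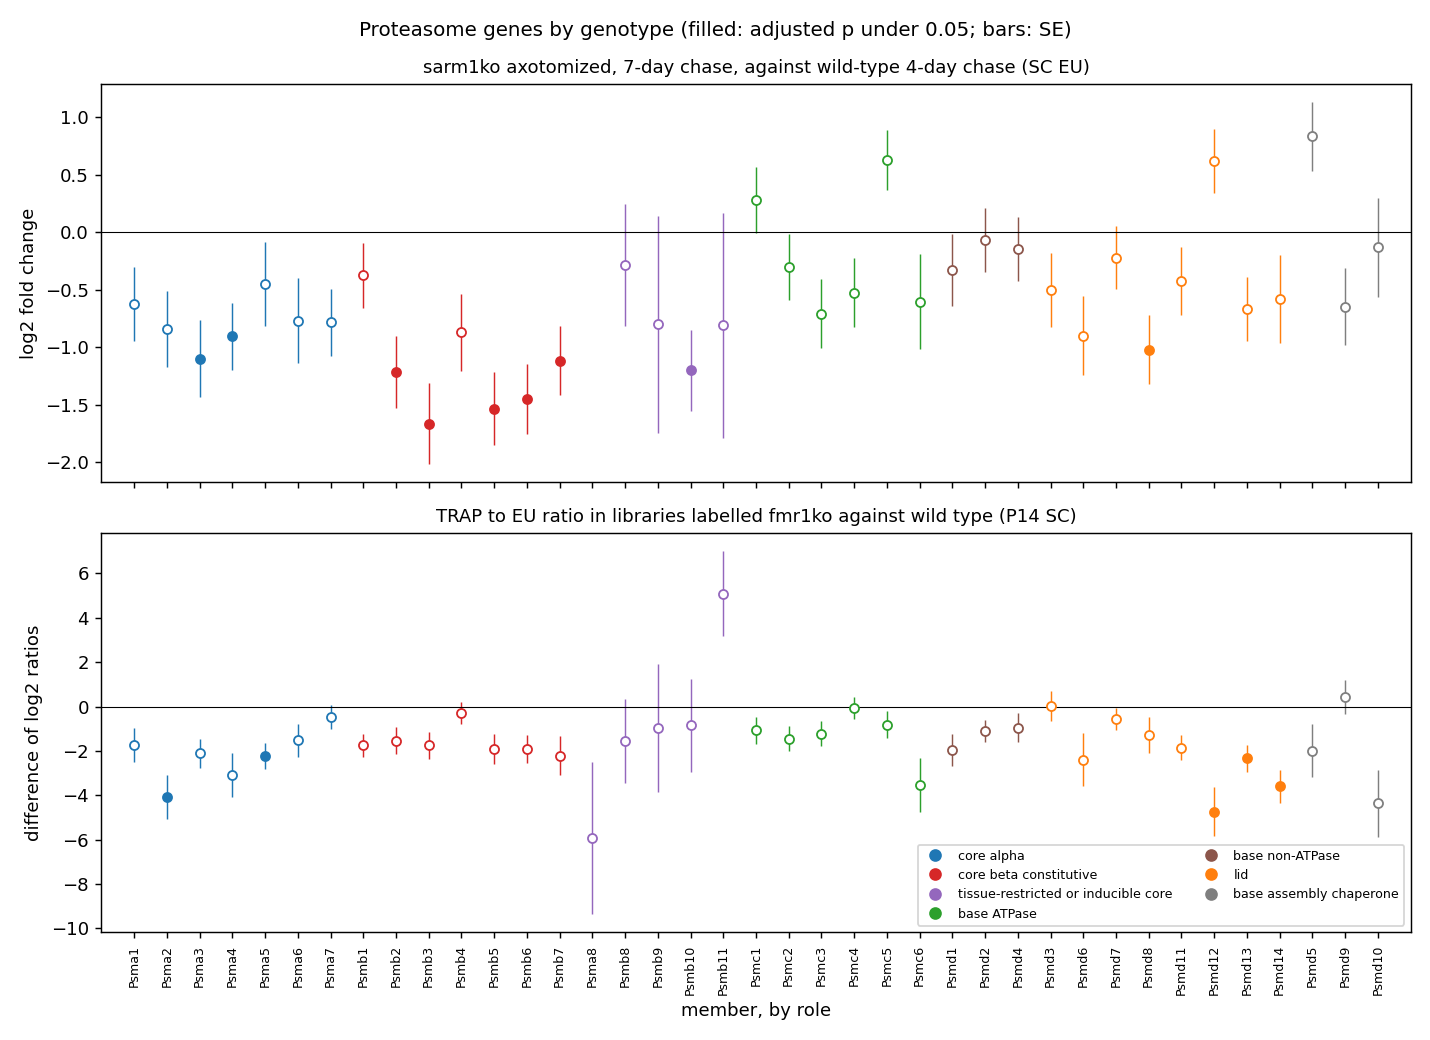
Log2 fold change of the sarm1ko axotomized chase over the wild-type chase (upper panel) and the difference of log2 TRAP to EU ratios between libraries labelled fmr1ko and wild type (lower panel), with SE, for each member by role; filled points have an adjusted p under 0.05 and untested members have no point. In the upper panel 34 of 38 members lie below 0 and the filled points are mainly beta subunits; in the lower panel 36 of 39 lie below 0.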

How the data were processed

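RNA was measured in 48 libraries of 15 groups, from superior colliculus, lateral geniculate nucleus and eye. The deposited tables hold estimated counts per gene and TPM, made with Salmon per the submitters' processing notes, which also name the build mm10; no source used here gives versions or settings. Estimated counts as deposited were rounded to whole numbers and tested with edgeR 4.0.16 (quasi-likelihood F test, trimmed mean of M-values, filterByExpr) in R 4.3.3, with Benjamini-Hochberg adjustment over all genes tested and a threshold of 0.05. Only the libraries compared entered each of 14 comparisons and 2 interactions. TPM values as deposited were used for levels and, as log2(TPM + 1), with limma 3.58.1. DESeq2 1.42.0 (Wald test) was another alternative. Transcript GC content came from GENCODE M21 on GRCm38, to which 54097 of 54331 genes matched. The edgeR and DESeq2 fits were tested on simulated counts.

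P14 SC replicates 3 to 5 and replicates 1 and 2 carry different codes in their titles, and replicates 3 to 5 were used except against LGN. Members and gene lists were chosen with earlier results of these data known. Folds are given for called members (the 8 of smallest adjusted p where more were called) and, between TRAP and EU, for the catalytic subunits; of each pathway list, up to 3 called genes are named. Other genes with values, such as Psmb10 against the eye and uncalled Psmc6 and Psmd12, were chosen after their values were seen. Alternatives were size factors by relative log expression, no filter, trends on length or GC removed, abundant genes left out, a replicate block, other libraries, and each library left out. The pathway gene Paaf1 was not analysed here, and some other genes of the ubiquitin list are not reported here.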

Additional observations from a re-analysis of the deposited data

Results flagged for a closer look

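In the groups of 5 libraries, 77 sets of values (a member in a group) were searched for a library far from the other 4, and 7 were found. Chance flags about 1 in 20 groups, and members of 1 library are not independent of each other. In SC EU at P14, replicate 1 stood apart for Psmb4 (1165.5 TPM, the other 4 from 556 to 618), Psmd9 (75.8 TPM) and Psmd11 (530.4 TPM), and replicate 2 for Psmb11 (0.602 TPM) and Psmd8 (253.9 TPM). In SC TRAP at P14, replicate 2 stood apart for Psmd7 (40.4 TPM) and Psmd12 (6.71 TPM). All 7 belong to replicates 1 and 2, which carry other title codes than replicates 3 to 5. In SC EU these 2 libraries also had fewer counts, 2558141 and 6034159 against 21487576 to 23308561. The SC TRAP replicates 1 and 2 had 27306636 and 20616267. The part of depth was not tested.

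The TRAP to EU ratio differed between libraries labelled fmr1ko and wild type, by the interaction term of edgeR's fit, for Psma2 (-4.09 on the log2 scale), Psma5 (-2.23), Psmd12 (-4.74), Psmd13 (-2.33) and Psmd14 (-3.59). Fmr1 counts did not follow the label in these libraries, and they do not show whether the allele is disrupted.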

How the results depend on the processing

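The counts of called members are given in the order of the report, and the cause of each move was not tested unless stated. They cover both directions, and the share of all genes called under each setting is not given in this section. A changed count therefore does not show a change particular to the members. The same holds for counts above that stand without such a share. For P14 SC TRAP against EU (12), all 5 libraries gave 3, replicates 1 and 2 gave 0, and leaving out 1 library gave 0 to 14. For P10 (4), no filter gave 10, DESeq2 10, limma 7, the GC trend removed 9 and the replicate block 2, and leaving out 1 library gave 0 to 7. For LGN (0), no filter and the GC trend removed gave 1 each. For SC EU against immunopanned EU cells (11), panned cells without EU capture gave 0, and leaving out 1 library gave 4 to 11. For P14 against P10 in EU (0), no filter gave 5, DESeq2 5, the GC trend removed 2 and the replicate block 2, with 0 to 9 on leaving out 1 library. For 8 weeks (0), no filter gave 1 and DESeq2 3, with 0 to 9. For the chase (0), no filter gave 1. For sarm1ko (9), limma gave 21 and the length trend removed 3, with 3 to 15.

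Under the fmr1ko label, SC EU (2) gave 12 with no filter, 9 with DESeq2, 5 with limma, 5 with the length trend removed, 1 without abundant genes, and 0 with the replicate block or with all 5 wild-type libraries, with 0 to 12 on leaving out 1 library. SC TRAP (0) gave 8 with DESeq2, with 0 to 6, and FACS cells (0) gave 7 with DESeq2. The ratio (5) gave 3 with relative log expression factors, 13 with DESeq2, 0 with the replicate block, 1 with all 5 wild-type libraries and 3 with the GC trend removed, with 0 to 12.

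Of the values for single genes under alternatives, 851 kept their direction and side of the threshold, 290 lost the call, 5 gained one and 18 changed sign. With replicates 1 and 2 at P14 these were, beside the value for Psma4, P14 SC TRAP against EU (-0.046), those of Psmc6 (-1.39), Psmd12 (-1.86), Psmd11 (-1.10), Psmb9 (-1.83) and Ngly1 (-1.65), and Psmb9 had -0.21 with all 5 libraries. Psmb5 at P14 had -0.035 without EU replicate 5, within a range of -0.035 to 0.58 over libraries left out. The result for Psmb5, P10 SC TRAP against EU, was -0.21 with limma, -0.049 with the length trend removed, -0.048 with the replicate block and -0.39 without TRAP replicate 3 (range -0.39 to 0.70). At P10, Psmb10 had -0.070 with limma, and Ddi2 had 0.046 with the length trend removed. In LGN, Psmb7 had -0.61 with limma, -0.21 with the length trend removed and -0.092 without TRAP replicate 2 (range -0.092 to 0.50). Txnl1, sarm1ko axotomized 7-day chase against wild-type 4-day chase, had -0.043 with limma.

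Title numbers did not pair the libraries by the rule of 3 or more pairs with correlated deviations, with correlations from -0.585 to 0.216 outside the SC to LGN comparisons. The SC to LGN comparisons had 2 pairs each, so they could not meet the rule. Their correlations were 0.317 in EU and 0.357 and 0.408 in TRAP, and they were tested without pairing. The replicate block therefore stands here only. Relative log expression factors moved the median of all genes from -0.24 to -0.47 in LGN and from -0.11 to 0.06 for the fmr1ko ratio. At P10, leaving out abundant genes moved that median from -0.08 to 0.06. Values of Psma8, Psmb9 and Psmb11 rest on few reads, and no difference was detectable at that depth in most comparisons.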
